A study of Mus musculus with 60 samples.

Results

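The genes described here are 10 genes of the brain endothelium and the blood-brain barrier: Cldn5, Esam, Icam2, Slc2a1, Emcn, Myct1, Nostrin, Ly6a, Tie1 and Flt1. They were taken by symbol from the 770 genes of a nanoString neuroinflammation panel, and all 10 were found and tested in every comparison. The choice was made with earlier results of these data known. The samples were hippocampus, hypothalamus and brain stem of 20 female Balb/C mice, 13 weeks old at collection. Tumor-bearing mice had received 67NR cells, a mammary carcinoma line that does not metastasize and derives from 1 spontaneous Balb/cfC3H tumor, in the inguinal mammary glands, and vehicle injected mice had received the culture medium DMEM alone. Brains were collected 25 days after the injection, at mid-dark (ZT19, where ZT is the time since lights on) or at mid-light (ZT7), after perfusion with phosphate-buffered saline. Each combination of tumor status and phase held 5 mice, and the same mice gave the 3 regions. Of 60 samples, 56 had values. Groups held 5 samples, except vehicle mid-dark brain stem (4), vehicle mid-light hypothalamus (4) and vehicle mid-dark hypothalamus (3). The model was 1 tumor cell line in 1 mouse strain and sex, and every value came from whole tissue in which endothelial cells are a minority. Fewer endothelial cells and less RNA per endothelial cell cannot be told apart in such samples.

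Brain endothelial cells line the vessels and form the blood-brain barrier by sealing their contacts with tight junctions and by admitting glucose and other nutrients through dedicated transporters. They also face the blood, so they carry adhesion molecules for leukocytes and receptors for circulating cytokines, and they are among the cells through which an illness elsewhere in the body can reach the brain. Among the 10 genes, Cldn5 encodes claudin-5, the main tight junction claudin of these cells. Esam encodes an adhesion molecule of endothelial contacts and Icam2 a constitutive ligand of leukocyte integrins. Slc2a1 encodes GLUT1, the glucose transporter of the barrier. Emcn encodes endomucin, a sialomucin of capillary and venous endothelium that hinders leukocyte adhesion. Tie1 and Flt1 encode receptors, the former a partner of the angiopoietin receptor Tie2 and the latter VEGF receptor 1. Nostrin encodes an adaptor that binds endothelial nitric oxide synthase. Ly6a encodes Sca-1, a GPI-anchored surface protein of mouse endothelium and blood stem cells that cytokines can induce. Myct1 encodes a membrane protein enriched in endothelium.

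Stretches of up to 250 bases before the start of the gene were read for 7 of the 10 genes from the RefSeq promoter table (GRCm38.p6). Esam, Icam2 and Ly6a had no entry there. Of the 7 windows, 4 are shown: Cldn5, which had the largest difference between phases among the 10 genes, Slc2a1 and Emcn, which differed between tumor-bearing and vehicle injected mice in opposite directions, and Tie1, which passed the test in neither comparison. The windows are chr16:18776597-18776846 (plus strand), chr4:119108495-119108744 (plus), chr3:137340828-137341061 (plus, 234 bases, since the last 16 lay inside the annotated gene) and chr4:118489850-118490099 (minus). Capitals mark GGAA or its complement TTCC, the core of the sites read by ETS factors, a family that endothelial genes are known to use.
Cldn5: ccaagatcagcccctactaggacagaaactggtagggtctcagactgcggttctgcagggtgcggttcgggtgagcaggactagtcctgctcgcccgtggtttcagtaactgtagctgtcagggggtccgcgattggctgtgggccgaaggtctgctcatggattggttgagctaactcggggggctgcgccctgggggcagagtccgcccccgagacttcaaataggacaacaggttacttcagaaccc
Slc2a1: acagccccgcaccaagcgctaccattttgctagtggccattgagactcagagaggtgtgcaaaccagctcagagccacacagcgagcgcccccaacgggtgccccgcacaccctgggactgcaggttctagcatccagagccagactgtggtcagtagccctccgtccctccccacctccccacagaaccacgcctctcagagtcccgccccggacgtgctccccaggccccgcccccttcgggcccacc
Emcn: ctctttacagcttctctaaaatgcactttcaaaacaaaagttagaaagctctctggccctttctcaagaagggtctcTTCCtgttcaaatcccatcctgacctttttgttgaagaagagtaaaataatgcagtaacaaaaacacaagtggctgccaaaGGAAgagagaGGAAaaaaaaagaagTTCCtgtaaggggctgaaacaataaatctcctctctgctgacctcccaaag
Tie1: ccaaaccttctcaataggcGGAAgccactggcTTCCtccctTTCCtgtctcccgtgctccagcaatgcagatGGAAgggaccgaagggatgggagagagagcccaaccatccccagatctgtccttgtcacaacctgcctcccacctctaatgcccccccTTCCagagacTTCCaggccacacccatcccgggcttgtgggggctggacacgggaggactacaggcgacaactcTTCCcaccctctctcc

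GGAA on either strand occurred 7 times before Tie1 and 4 times before Emcn, and it occurred nowhere in the windows of Cldn5 and Slc2a1. The other windows held 8 (Myct1), 7 (Nostrin) and 4 (Flt1). Of 32851 promoter windows of 250 bases in the table, 93.4% held GGAA at least 1 time, with a median of 3, and 3.82% held it at least 7 times. None of the 7 windows held CCGGAAG, an extended ETS site, TTCNNNGAA, a STAT palindrome, or CACGTG, an E-box read by clock factors, each searched on both strands. These occurred in 6.91%, 7.02% and 6.02% of all windows. The matches describe the letters of these windows and not binding, and CCGGAAG contains a GGAA.

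Values were normalized log2 units, in which a difference of 1 is a doubling. The 10 genes lay between 4.26 and 10.3 in every sample, inside the panel's range of -0.37 to 15.4. Mean values by region ran from 9.83 to 9.96 for Cldn5, 9.33 to 9.77 for Slc2a1, 8.69 to 8.98 for Flt1, 8.48 to 8.57 for Esam and 7.72 to 8.01 for Emcn. They ran from 7.25 to 7.75 for Ly6a, 7.11 to 7.41 for Tie1, 6.66 to 7.06 for Icam2, 6.68 to 6.94 for Nostrin and 5.17 to 5.36 for Myct1. Each gene was read by its own probe, so a level of one gene cannot be set against that of another. Region identity was checked with known genes: Nrgn averaged 13.5 in hippocampus against 10.3 in hypothalamus and 9.01 in brain stem, Dlx1 was highest in hypothalamus (8.43) and Mog in brain stem (11.5). Eomes, also taken as a hippocampal gene, was highest in brain stem (5.74, against 4.94 in hippocampus).

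**Figure D1:**
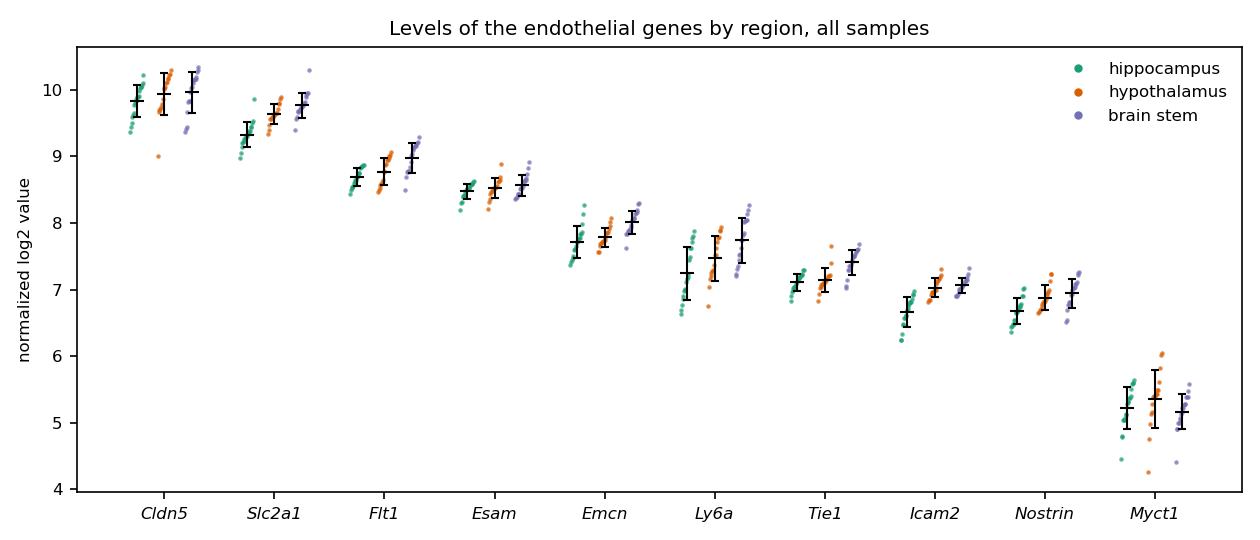
Normalized log2 values (vertical axis) of the 10 endothelial genes (horizontal axis) in hippocampus (20 samples), hypothalamus (17) and brain stem (19). Points are samples, drawn in ascending order within a region, and bars are mean and SD; the Icam2 mean was 6.66 for hippocampus, against 7.03 for hypothalamus and 7.06 for brain stem.

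Tumor-bearing mice had higher Ly6a, Slc2a1 and Esam and lower Emcn than vehicle injected mice on average over the 3 regions. Ly6a rose by 0.59 log2 units (SE 0.06, adjusted p = 3.65e-10), which is 1.5-fold (95% interval 1.39 to 1.64). Slc2a1 rose by 0.21 (SE 0.04, adjusted p = 0.00191), or 1.15-fold, and Esam rose by 0.14 (SE 0.04, adjusted p = 0.0179), or 1.1-fold. Emcn fell by 0.21 (SE 0.05, adjusted p = 0.00992), a 1.16-fold lower value. The test was limma's moderated test of the mean tumor effect over regions with the mouse as a random block, adjusted by Benjamini-Hochberg over 770 genes. It called 18 genes, 2.34% of those tested (15 up and 3 down), against 4 of the 10 endothelial genes (3 up and 1 down). Since the 10 genes were chosen with earlier results known, their share is a description and no sign of enrichment. The median difference was -0.008 over the 10 genes and -0.005 over all genes, and 4 of the 10 lay above 0, against 45.8% of all genes.

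**Figure D2:**
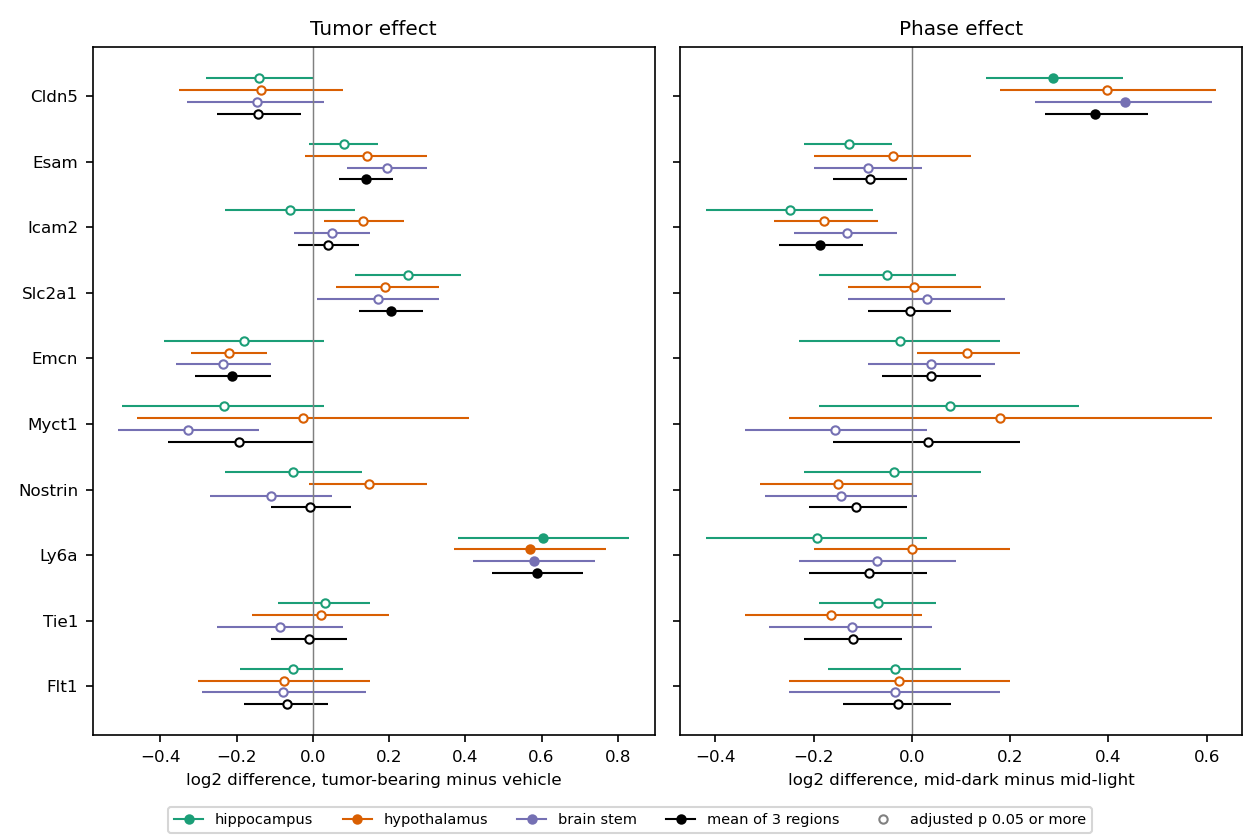
Differences in log2 value with 95% intervals (horizontal axes) for each endothelial gene, tumor-bearing minus vehicle (left) and mid-dark minus mid-light (right), in each region and as the mean over the 3 regions. Filled points passed adjusted p under 0.05; in the left panel Ly6a stands apart near 0.59 in every region, and in the right panel Cldn5 lies above 0 and Icam2 below 0 in every region.

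Ly6a carried the largest tumor difference of the 10 genes. In hippocampus at mid-dark its values in tumor-bearing mice were 7.11, 7.19, 7.49, 7.81 and 7.88, and those in vehicle injected mice were 6.63, 6.70, 6.77, 6.90 and 7.01. At mid-light the tumor values were 7.23, 7.63, 7.63, 7.71 and 7.78, and the vehicle values 6.86, 6.98, 6.99, 7.16 and 7.44. All tumor samples were above all vehicle samples at mid-dark, and 1 tumor sample reached into the vehicle range at mid-light. In hypothalamus the tumor samples held 7.37, 7.78, 7.79, 7.89 and 7.94 at mid-dark and the vehicle samples 6.75, 7.20 and 7.30. At mid-light the tumor samples held 7.52, 7.52, 7.63, 7.72 and 7.88, and the vehicle samples 7.04, 7.16, 7.25 and 7.28. The 10 tumor samples of hypothalamus all lay above its 7 vehicle samples, and no other gene of the panel lay wholly above its vehicle samples there. In brain stem at mid-dark the tumor samples held 7.85, 8.02, 8.03, 8.05 and 8.19, and the vehicle samples 7.21, 7.31, 7.36 and 7.53. At mid-light the tumor samples held 7.75, 7.82, 8.04, 8.14 and 8.27, and the vehicle samples 7.24, 7.44, 7.52, 7.63 and 7.75. The brain stem groups were apart at mid-dark and met at 7.75 at mid-light.

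By region, Ly6a rose by 0.60 in hippocampus (SE 0.11, adjusted p = 0.00535), 0.57 in hypothalamus (SE 0.09, adjusted p = 0.0165) and 0.58 in brain stem (SE 0.08, adjusted p = 0.000294). It was the only endothelial gene called for tumor status in a single region. The test called 4 genes in hippocampus (0.52% of 769), 2 in hypothalamus (0.26% of 770) and 8 in brain stem (1.04% of 769). The difference between any pair of regions in the tumor effect on Ly6a was at most 0.02, with 95% intervals inside -0.26 to 0.28. The hypothalamic call was lost without vehicle mouse 28 (adjusted p = 0.0546) and without vehicle mouse 30 (adjusted p = 0.0508).

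Averaged over the regions of each mouse, Ly6a in the 10 tumor-bearing mice lay 0.32 to 0.81 above the vehicle mean of the region, and the 10 vehicle mice lay between -0.20 and 0.31. Every tumor-bearing mouse was thus above every vehicle injected mouse, but tumor mouse 1 (0.32) and vehicle mouse 2 (0.31) nearly met. Vehicle mice 8, 10, 12 and 32 had values in 2 regions and all other mice in 3. Slc2a1 and Esam each had 6 of 10 tumor-bearing mice above all vehicle mice, and Emcn had 5 of 10 below all of them. Such counts by mouse were not made for the rest of the panel, so they have no background and are a description.

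**Figure D3:**
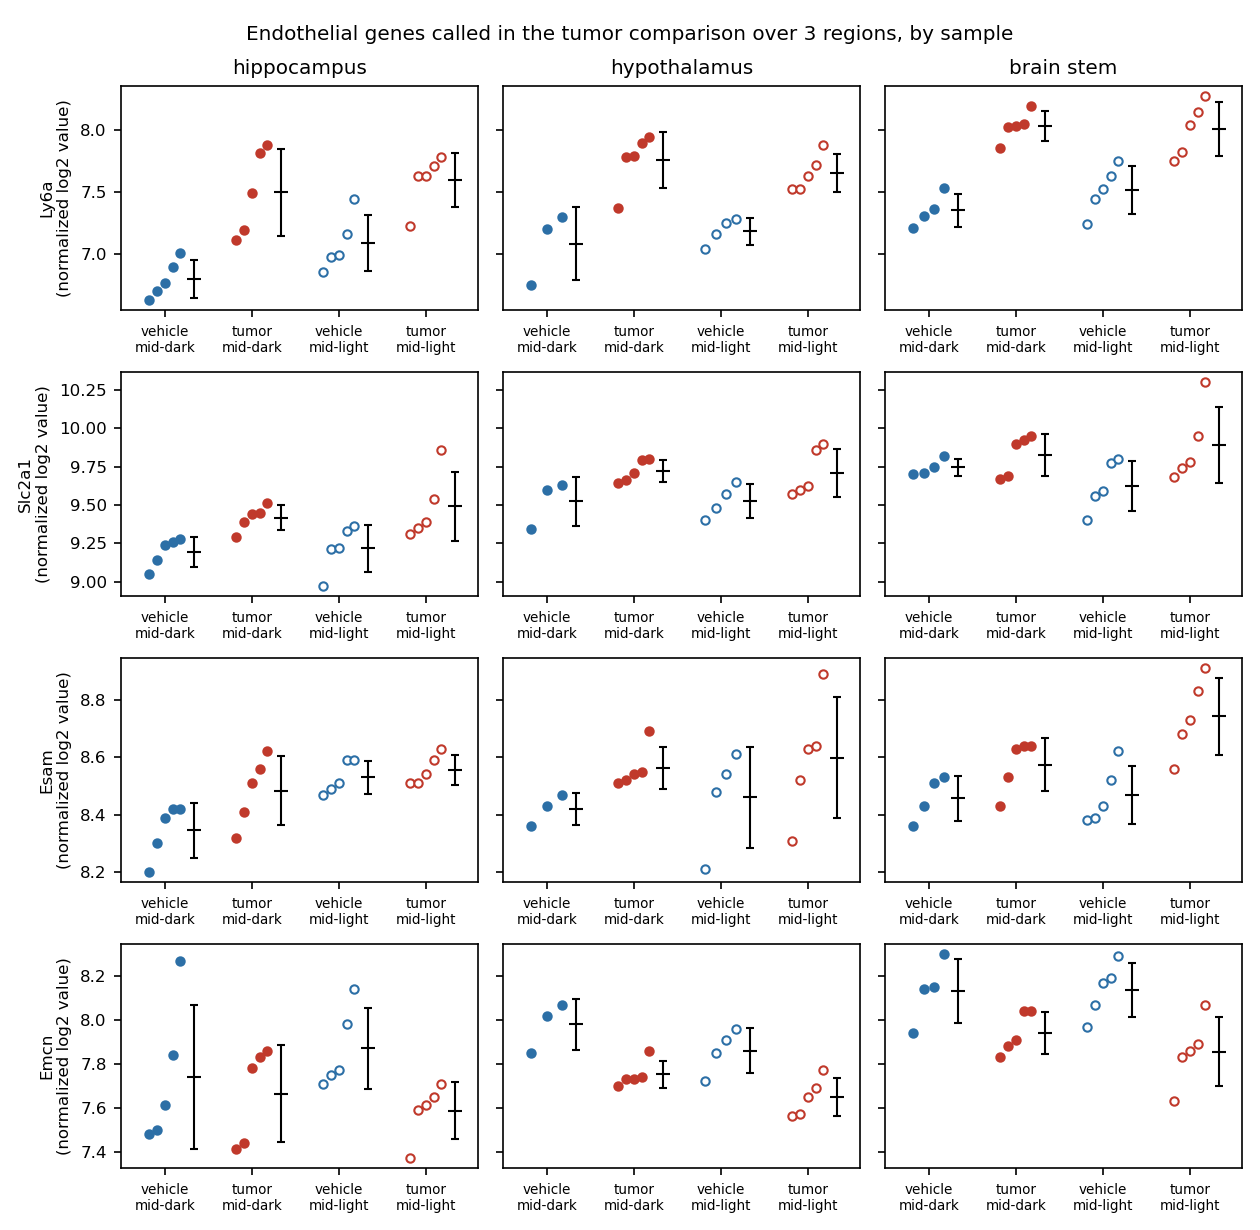
Normalized log2 values (vertical axes) of Ly6a, Slc2a1, Esam and Emcn in each sample of the 3 regions, by tumor status and phase (filled points mid-dark, open points mid-light, red tumor-bearing, blue vehicle). Bars are mean and SD of 3 to 5 samples, and points within a group are drawn in ascending order; tumor values of Ly6a lie between 7.11 and 8.27 and vehicle values between 6.63 and 7.75.

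Slc2a1, the glucose transporter, was higher in tumor-bearing mice by similar amounts in each region without a call in a single one. Its values in hippocampus at mid-dark were 9.29, 9.39, 9.44, 9.45 and 9.51 in tumor-bearing mice and 9.05, 9.14, 9.24, 9.26 and 9.28 in vehicle injected mice, which do not overlap. At mid-light they were 9.31, 9.35, 9.39, 9.54 and 9.86 against 8.97, 9.21, 9.22, 9.33 and 9.36, where 2 tumor samples lay inside the vehicle range. The difference was 0.25 in hippocampus (SE 0.07, adjusted p = 0.166), 0.19 in hypothalamus (SE 0.06, adjusted p = 0.365) and 0.17 in brain stem (SE 0.08, adjusted p = 0.744). In hypothalamus the tumor samples ranged from 9.57 to 9.90 (median 9.68) and the vehicle samples from 9.34 to 9.65 (median 9.57). In brain stem they ranged from 9.67 to 10.3 (median 9.84) and from 9.40 to 9.82 (median 9.71). The call over regions held in each of 26 alternatives (difference 0.17 to 0.23, adjusted p 0.000643 to 0.0355). None of these took 1 value per mouse, and the mouse block used 1 correlation for all genes. Tumor mouse 13 was the highest, 0.54 above the vehicle mean of the region when averaged over its regions.

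Esam, the junctional adhesion molecule, showed its largest difference in brain stem. There the tumor samples ranged from 8.43 to 8.91 (median 8.64) and the vehicle samples from 8.36 to 8.62 (median 8.43), a difference of 0.20 (SE 0.05, adjusted p = 0.108). The difference was 0.08 in hippocampus and 0.14 in hypothalamus, where the mid-dark tumor samples (8.51, 8.52, 8.54, 8.55 and 8.69) all lay above the vehicle samples (8.36, 8.43 and 8.47). The call over regions was lost with scaling to the 13 panel reference genes (adjusted p = 0.129), with only the samples whose 260/280 absorbance ratio, a measure of RNA purity, was at least 1.8 (adjusted p = 0.0587), without vehicle mouse 6 (adjusted p = 0.065) and without tumor mouse 7 (adjusted p = 0.0557).

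Emcn, the endothelial sialomucin, was lower in tumor-bearing mice in each region. In hypothalamus the tumor samples ranged from 7.56 to 7.86 (median 7.72) and the vehicle samples from 7.72 to 8.07 (median 7.91), a difference of -0.22 (SE 0.05, adjusted p = 0.111). In brain stem they ranged from 7.63 to 8.07 (median 7.89) and from 7.94 to 8.30 (median 8.15), a difference of -0.24 (SE 0.06, adjusted p = 0.101). Hippocampal values ran from 7.37 to 7.86 in tumor-bearing and from 7.48 to 8.27 in vehicle injected mice, a difference of -0.18 (SE 0.10, adjusted p = 0.809). The upper ends of the tumor samples overlapped the lower ends of the vehicle samples in each region. The call over regions held in each of 26 alternatives (difference -0.25 to -0.20, adjusted p 0.00134 to 0.0311).

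The other 6 genes were not called for tumor status over regions. Cldn5 differed by -0.14 (SE 0.05, adjusted p = 0.212) and Myct1 by -0.19 (SE 0.10, adjusted p = 0.506). Myct1 in brain stem differed by -0.33 (SE 0.09, adjusted p = 0.114), and at mid-dark its tumor samples there (4.41, 4.91, 5.00, 5.04 and 5.13) were all below its vehicle samples (5.22, 5.27, 5.28 and 5.39). Differences over regions were -0.07 for Flt1 (95% interval -0.18 to 0.04), -0.01 for Tie1 (-0.11 to 0.09), -0.01 for Nostrin (-0.11 to 0.10) and 0.04 for Icam2 (-0.04 to 0.12). The intervals of these 4 genes reach no further than 0.18 from 0.

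Taken within each phase, tumor-bearing and vehicle injected mice differed by limma's adjusted p in few genes. At mid-dark the test called 1 gene of hippocampus (0.13%), 0 genes of hypothalamus (0%) and 2 of brain stem (0.26%). At mid-light it called 1 (0.13%), 0 (0%) and 6 (0.78%). Of the endothelial genes Ly6a alone was called, in brain stem. The difference there was 0.68 at mid-dark (SE 0.11, adjusted p = 0.00521, 1.6-fold) and 0.49 at mid-light (SE 0.11, adjusted p = 0.0394, 1.4-fold). The mid-light call was lost in 16 of 28 alternatives, among them leaving out any 1 of 12 mice, and its adjusted p ran from 0.0223 to 0.22. Ly6a differences of similar size were not called in the other regions. By limma they were 0.69 (SE 0.15, adjusted p = 0.0791) at mid-dark and 0.51 (SE 0.15, adjusted p = 0.261) at mid-light in hippocampus. In hypothalamus they were 0.67 (SE 0.14, adjusted p = 0.166) and 0.47 (SE 0.13, adjusted p = 0.555). By limma's unadjusted p under 0.05, hippocampus had 51 genes that differed in the dark phase and 53 in the light phase, 3 and 4 of them endothelial. Hypothalamus had 37 and 40, 2 and 6 of them endothelial, and brain stem had 56 and 37, 4 and 6 of them endothelial.

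Groups without any overlap between tumor-bearing and vehicle samples were counted as a description. Above the vehicle samples lay Ly6a and Slc2a1 in hippocampus at mid-dark (0.779% of 770 genes did so), Ly6a, Slc2a1 and Esam in hypothalamus at mid-dark (1.95%), Ly6a in hypothalamus at mid-light (0.779%) and over both its phases (0.13%), and Ly6a in brain stem at mid-dark (1.56%). Below them lay Cldn5 in hippocampus at mid-light (1.04%) and Myct1 and Nostrin in brain stem at mid-dark (0.779%).

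RNA purity by the 260/280 ratio differed between groups in brain stem. The 260/280 ratio of the tumor mid-dark samples was 1.34, 1.47, 1.68, 1.82 and 1.99, against 1.95 to 2.01 in the 4 vehicle mid-dark samples. At mid-light 1 sample of each group was under 1.8 (1.51 and 1.72), and 1 sample in the other regions was (1.79). With the ratio as a covariate the Ly6a difference in brain stem at mid-dark was 0.54 (adjusted p = 0.215), and with only the samples at 1.8 or more it was 0.59 (adjusted p = 0.314). Over both phases of brain stem it stayed called in each of 27 alternatives (0.51 to 0.61, adjusted p 4.28e-05 to 0.0144). The part of purity in the other brain stem values was not tested beyond these alternatives. A second recorded absorbance ratio was not used. It was lowest in hypothalamus of tumor mouse 1 and tumor mouse 7, which are among the samples flagged below, and its part was not tested.

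Whether the tumor effect depended on phase was tested by the interaction (tumor effect at mid-dark minus that at mid-light). No gene of the panel was called in hippocampus, hypothalamus or brain stem (0% in each), where 47, 20 and 28 genes had an unadjusted p under 0.05 by limma. As the mean over regions, a comparison added after the data were seen, 1 gene was called (0.13%, Gadd45g) and no endothelial gene. Cldn5 and Nostrin had the largest interactions of the 10 over regions. Cldn5 differed between tumor-bearing and vehicle injected mice by 0.06 (mid-dark) and -0.34 (mid-light) in hippocampus, by 0.06 and -0.33 in hypothalamus and by 0.01 and -0.30 in brain stem. By limma its interaction was 0.36 over regions (SE 0.11, adjusted p = 0.377) and 0.40 in hippocampus (SE 0.13, adjusted p = 0.509). The interval over regions was 0.15 to 0.58, but the adjusted value does not make it a call.

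The Cldn5 samples of hippocampus are given by phase, although the interaction was not called. In hippocampus at mid-light the tumor samples held 9.37, 9.44, 9.50, 9.63 and 9.65, all below the vehicle samples at 9.81, 9.84, 9.86, 9.89 and 9.90. At mid-dark the tumor samples held 9.59, 10.04, 10.07, 10.11 and 10.22 and the vehicle samples 9.78, 9.91, 9.98, 10.03 and 10.04, which overlap. Without tumor mouse 3, the sample at 9.59, the hippocampal interaction was 0.51 (adjusted p = 0.0337) and the mid-light difference of -0.34 was called (adjusted p = 0.02). Leaving out any other single mouse gave neither call, and mouse 3 was flagged as standing apart in these same data. It is a mid-dark mouse, so the mid-light difference itself did not change. Tumor mouse 13 had the lowest mid-light Cldn5 value in each region (9.37, 9.01 and 9.37), and without it the interaction over regions was 0.28 (adjusted p = 0.592). Nostrin showed the opposite order, with brain stem differences of -0.36 (mid-dark) and 0.14 (mid-light). By limma its interaction was -0.50 there (SE 0.15, adjusted p = 0.634) and -0.29 over regions (SE 0.10, adjusted p = 0.697). The brain stem tumor mid-dark group is the one with the low 260/280 ratios.

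Between regions the tumor effect was not called for any gene of the panel (0% for hippocampus against hypothalamus, for hippocampus against brain stem and for hypothalamus against brain stem). By limma's unadjusted p under 0.05, 41, 17 and 18 genes differed in these comparisons. Among the endothelial genes these were Icam2 for hippocampus against hypothalamus (-0.18, adjusted p = 0.781) and Nostrin for hypothalamus against brain stem (0.24, adjusted p = 0.999).

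Between the phases, other genes of the set differed. Over regions Cldn5 was 0.37 higher at mid-dark than at mid-light (SE 0.05, adjusted p = 8.99e-07), or 1.3-fold (95% interval 1.21 to 1.39), and Icam2 was 0.19 lower (SE 0.04, adjusted p = 0.00108), or 1.14-fold. The test called 104 genes over regions (13.5% of 770) and 2 of the 10 endothelial genes. Both calls held in each of 26 alternatives. The median difference was -0.06 over the 10 genes and 0.01 over all genes, and 3 of the 10 lay above 0, against 53.5% of all genes.

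Cldn5 ranged at mid-dark from 9.59 to 10.22 (median 10.03) in hippocampus and at mid-light from 9.37 to 9.90 (median 9.73). In hypothalamus it ranged from 10.03 to 10.30 (median 10.18) and from 9.01 to 10.12 (median 9.75). In brain stem it ranged from 10.05 to 10.34 (median 10.17) and from 9.37 to 10.19 (median 9.82). The phases overlapped in each region. Cldn5 was called in hippocampus (0.29, SE 0.07, adjusted p = 0.0154) and brain stem (0.43, SE 0.09, adjusted p = 0.00635), and in hypothalamus the difference was 0.40 (SE 0.10, adjusted p = 0.0553). By tumor status, the difference of the group means (mid-dark minus mid-light) for hippocampus was 0.49 with a tumor and 0.09 with vehicle. It was 0.59 against 0.21 for hypothalamus and 0.59 against 0.28 for brain stem. The difference between these is the interaction given above, which was not called. The hippocampal call of Cldn5 was lost with scaling to the reference genes (0.24, adjusted p = 0.107).

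**Figure D4:**
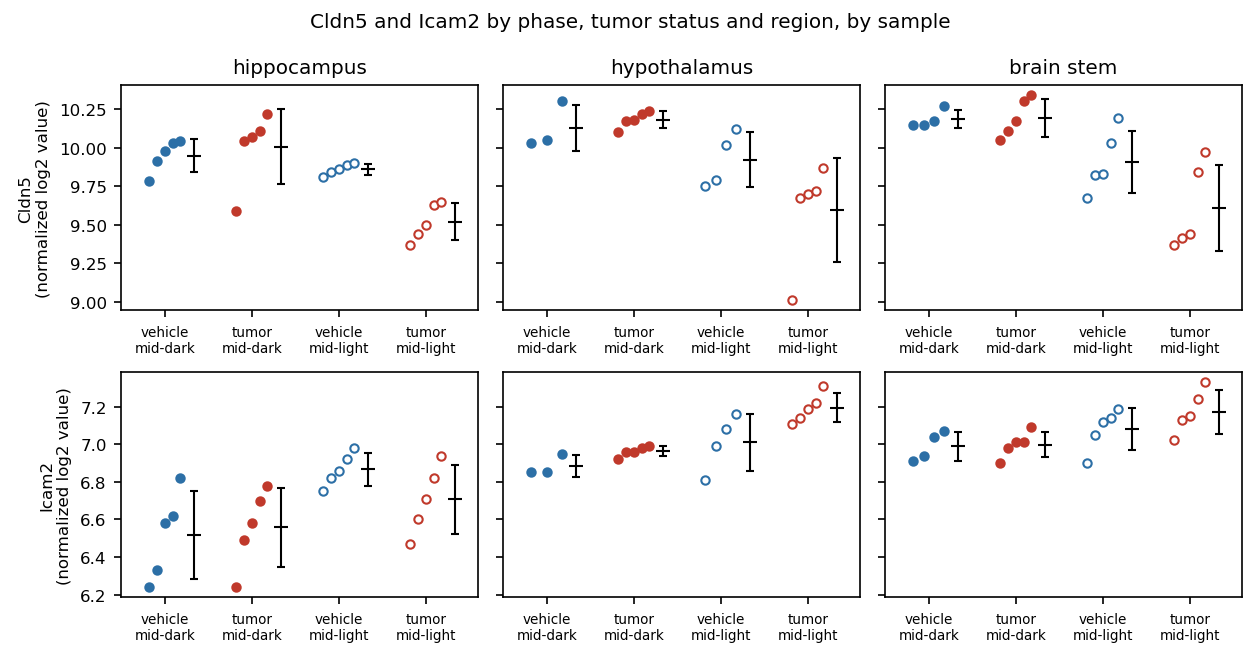
Normalized log2 values (vertical axes) of Cldn5 and Icam2 in each sample of the 3 regions, by tumor status and phase (filled points mid-dark, open points mid-light, red tumor-bearing, blue vehicle). Bars are mean and SD of 3 to 5 samples, and points within a group are drawn in ascending order; in hippocampus the tumor mid-light samples of Cldn5 lie at 9.37 to 9.65 and the vehicle mid-light samples at 9.81 to 9.90.

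Icam2, the integrin ligand, ranged from 6.24 to 6.82 (median 6.58) at mid-dark in hippocampus and from 6.47 to 6.98 (median 6.82) at mid-light. In hypothalamus it ranged from 6.85 to 6.99 (median 6.96) and from 6.81 to 7.31 (median 7.14), and in brain stem from 6.90 to 7.09 (median 7.01) and from 6.90 to 7.33 (median 7.13). The differences were -0.25 (adjusted p = 0.0917), -0.18 (adjusted p = 0.0721) and -0.13 (adjusted p = 0.151), with no call in a single region. The test called 43 genes of hippocampus (5.59%), 18 of hypothalamus (2.34%) and 38 of brain stem (4.94%). Endothelial calls there were Cldn5 alone in hippocampus and in brain stem and none in hypothalamus, where 102 genes and 3 of the 10 had an unadjusted p under 0.05 by limma. Tie1 (-0.12, adjusted p = 0.0959), Esam (-0.09, adjusted p = 0.106) and Nostrin (-0.11, adjusted p = 0.134) had lower values at mid-dark over regions without a call. Slc2a1, Flt1, Myct1, Emcn and Ly6a differed by -0.09 to 0.04.

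Oligodendrocyte genes moved with phase in the same samples. Of 8 genes of that list, 4 were lower at mid-dark over regions (Opalin, Mag, Mog and Cnp, by 0.28 to 1.11 log2 units) and none higher. The brain stem mean of the list was 12.01 to 12.27 (mid-dark) and 12.36 to 12.56 (mid-light), and it was 10.21 to 11.16 and 10.88 to 11.61 in hippocampus and 10.90 to 11.53 and 11.10 to 11.57 in hypothalamus. The part of this in the endothelial differences was not tested.

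Regions differed in most genes of the panel and in most of the endothelial genes. The test called 552 genes between hippocampus and hypothalamus (71.7%), 590 between hippocampus and brain stem (76.6%) and 512 between hypothalamus and brain stem (66.5%). Of the 10 endothelial genes it called 5, 9 and 5, and each called gene was lower in hippocampus, or in hypothalamus against brain stem. The shares of 5 of 10 lay below the panel's and that of 9 of 10 above it. The median difference of the 10 was -0.13, -0.30 and -0.12, against -0.05, -0.03 and 0.02 for all genes.

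Slc2a1 was lowest in hippocampus, followed by hypothalamus and brain stem, and each step was called. It was 0.28 lower in hippocampus than in hypothalamus (SE 0.04, adjusted p = 1.7e-07) and 0.16 lower in hypothalamus than in brain stem (SE 0.05, adjusted p = 0.00206). Ly6a had the same order, with steps of 0.17 (SE 0.06, adjusted p = 0.0143) and 0.31 (SE 0.06, adjusted p = 3.15e-05). Icam2 was 0.35 lower in hippocampus than in hypothalamus (SE 0.04, adjusted p = 4.59e-10), and hypothalamus and brain stem were not distinguished (-0.04, adjusted p = 0.405). Nostrin had the same pattern in the values without further scaling, with -0.20 (adjusted p = 0.000922) and -0.07 (adjusted p = 0.223). With scaling to the reference genes the step from hippocampus to hypothalamus was lost for Ly6a (-0.06, adjusted p = 0.413) and for Nostrin (-0.09, adjusted p = 0.174), and for Ly6a also without vehicle mouse 8 (-0.13, adjusted p = 0.066).

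Emcn, Tie1 and Flt1 were, like Slc2a1 and Ly6a, highest in brain stem, but for them hippocampus and hypothalamus were not distinguished. They were lower in hypothalamus than in brain stem by 0.20 (adjusted p = 0.000871), 0.27 (adjusted p = 7.71e-06) and 0.21 (adjusted p = 0.002). Cldn5 differed from hippocampus by 0.13 in hypothalamus (adjusted p = 0.0408) and by 0.14 in brain stem (adjusted p = 0.0147), and Esam by 0.08 in brain stem (adjusted p = 0.0401). These small differences were also lost in some alternatives. Leaving out single mice ended the Cldn5 call of hippocampus against hypothalamus for 9 of 20 mice and the Esam call for 10 of 20. Myct1 was not called between any pair (-0.13 to 0.19). Scaling to the reference genes moved the median of all genes by 0.11 for hippocampus minus hypothalamus and by -0.13 for hypothalamus minus brain stem, and the endothelial calls then numbered 2 and 9.

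Cell type genes also differed between the regions. All 8 oligodendrocyte genes were lower in hippocampus and in hypothalamus than in brain stem, by 0.37 to 1.74 and by 0.40 to 1.42. Of 6 neuronal genes, 5 were higher in hippocampus than in brain stem and 6 higher than in hypothalamus. Other vascular genes had no common direction, with 3 higher and 3 lower of 9 in hippocampus against hypothalamus and 4 higher and 3 lower against brain stem. Ttr, a gene of the choroid plexus, ranged from 5.36 to 14.71 in hippocampus and from 6.49 to 13.77 in brain stem, and from 4.33 to 5.34 in hypothalamus. The part of such tissue in the endothelial values was not tested.

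Related vascular genes were read from lists put together with earlier results of these data in view. Of 9 other vascular surface and junction genes (Jam2, Tm4sf1, Tmem204, Tspan18, Itga6, Lsr, Tmem100, Nrp2 and Slco2b1) none was called for tumor status in any region or over regions, where their differences ran from -0.13 to 0.08 and 2 had an unadjusted p under 0.05. Of 8 angiogenic and hypoxia genes, among them Vegfa and Hif1a, none was called either, with differences over regions of -0.08 to 0.05 and none at an unadjusted p under 0.05. Over regions by phase, 1 vascular gene was higher (Tmem100) and 1 lower (Itga6) at mid-dark. Of the angiogenic genes Vegfa (0.12, adjusted p = 0.0341) and Tnfrsf12a (0.21, adjusted p = 0.0103) were higher and Tgfbr1 (-0.13, adjusted p = 0.00165) lower. The 5 genes called by phase were named after their values were seen.

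Of 12 cytokine-responsive genes of brain endothelium, which vessels share with other cells of the tissue, 7 rose with the tumor over regions and none fell, where 2.34% of all genes were called. The other 5 were not called, and the lowest difference of the 12 was -0.12. In hippocampus 2 of the 12 rose (lowest difference -0.45), in hypothalamus 1 (lowest -0.56) and in brain stem 6 (lowest -0.07). Over regions the differences were 3.23 for Lcn2, which encodes lipocalin-2, an acute-phase protein (adjusted p = 4.69e-16), 0.66 for Lrg1, a secreted glycoprotein (adjusted p = 1.66e-05), and 0.35 for Osmr, the oncostatin M receptor (adjusted p = 2.77e-05). They were 0.82 for Ch25h, cholesterol 25-hydroxylase (adjusted p = 4.16e-05), and 0.34 for Il1r1, the interleukin-1 receptor (adjusted p = 0.00191). Since the list was made with results known, its count is a description. The median of the 12 was 0.29.

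Marker lists of other cell types held no tumor call over regions or in any single region. This applied to microglia (7 genes), perivascular macrophages (4), astrocytes (6), oligodendrocytes (8), neurons (6), T, NK and neutrophil cells (7), Ttr and the 13 reference genes. The lymphocyte and neutrophil list, cells that can carry Ly6a, averaged 3.39 to 3.59 in tumor-bearing and 3.41 to 3.72 in vehicle injected brain stem, 3.37 to 3.68 and 3.17 to 3.96 in hippocampus and 3.18 to 3.92 and 3.17 to 3.71 in hypothalamus. The differences of its genes over regions ran from -0.12 to 0.07. By region they ran from -0.529 to 0.572 (hippocampus), -0.373 to 0.315 (hypothalamus) and -0.221 to 0.248 (brain stem). Such spreads cannot settle a small change in these cells, and their part in the Ly6a values was not tested. The perivascular macrophage list differed by -0.09 to 0.22 over regions.

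Within groups the 10 genes varied largely apart from each other. After the mean of each of the 12 groups was removed, Pearson's r over the 56 samples had a median of 0.07 for the 45 pairs, against 0 for the 296065 pairs of all genes, and ran from -0.38 (Myct1 and Flt1) to 0.42 (Cldn5 and Esam). Of the pairs, 60% lay above 0, against 49.7% of all pairs. The highest pairs were Cldn5 and Esam, Esam and Icam2 (0.42), Esam and Tie1 (0.40) and Slc2a1 and Flt1 (0.39), so Esam took part in the top 3. No endothelial pair reached 0.5, as 1.29% of all pairs did. With only 45 pairs so small a share leaves few or none, so this shows no difference from the panel. The samples share mice and a common scaling, and these correlations are given without a test.

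**Figure D5:**
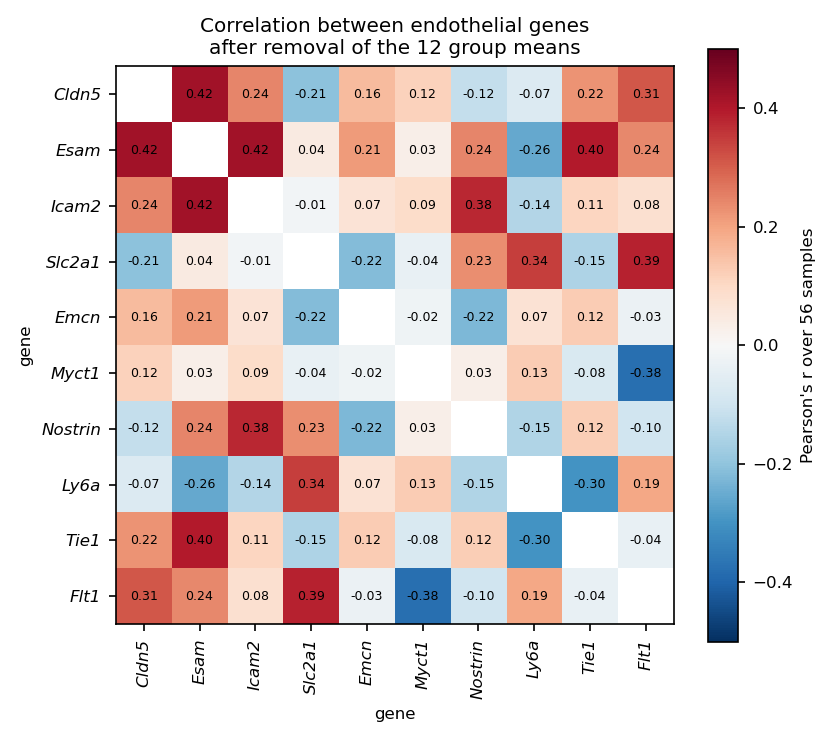
Pearson's r between the endothelial genes (both axes) over 56 samples, after the mean of each of the 12 groups of region, tumor status and phase was removed. Red is positive and blue negative; Esam is positive with Cldn5 (0.42), Icam2 (0.42) and Tie1 (0.40), and Myct1 with Flt1 is the lowest (-0.38).

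The panel gene most like each of the 10 within groups was in 9 cases no member of the set. Members are only 10 of the 770 panel genes, so numbers alone favor a gene outside the set. Each r below is the highest or second highest over the panel, given without a background for such maxima. Flt1 varied most closely with Ptms (0.71) and Akt1 (0.70), Emcn with Prkcq (0.70) and Pla2g5 (0.63), Slc2a1 with Nfkbia (0.57) and Fkbp5 (0.56) and Myct1 with Nkg7 (0.53) and Creb1 (0.49). Icam2 did so with Hpgds (0.49) and Dna2 (0.45), Ly6a with Mog (0.48) and Akt2 (0.46), Esam with Tnfsf13b (0.46) and Tnfrsf17 (0.45) and Nostrin with Calcoco2 (0.46) and Apc (0.44). Tie1 had Ripk2 (0.43) and Dnmt3a (0.41), and Cldn5 had Esam and S1pr4 (0.42 each).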

How the data were processed

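RNA from hippocampus, hypothalamus and brain stem was counted on the nanoString nCounter Mouse Neuroinflammation Panel. The authors subtracted the negative control background and normalized to positive controls and codeset content in nSolver 3, left out outlying samples judged on raw data, and quantile normalized in Partek GS 6.6. The deposited table holds log2 values of 770 genes in 56 of 60 samples (1 row without a gene name was left out); counts and depth are unknown here, and the number of samples limits the precision. Sample medians lay between 8.07 and 8.09. No value of the 10 endothelial genes equalled the lowest value of the table.

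The values were fitted without further scaling in limma 3.58.1 (R 4.3.3), with 4 group means per region, or with 12 group means over the 3 regions and the mouse as a random block. Same-numbered samples came from the same mouse, and their consensus correlation was 0.136. This 1 value served all genes, and tumor status was not tested on 1 value per mouse. Tests were two-sided, with Benjamini-Hochberg adjustment over all genes tested and a threshold of adjusted p under 0.05, and 1 gene was not tested in hippocampus and in brain stem. Intervals are 95% intervals of the moderated test. The fit was tested on simulated data. The alternatives were a filter at a mean log2 value of 5, scaling to reference genes or to sample medians, an ordinary test, the 260/280 ratio as a covariate or limit, other blocks or samples in the fit, and leaving out each mouse.

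The 10 genes, the other lists and the tests were chosen with earlier results of these data known. 1 gene of the other lists is not reported here. All 10 genes were named in every comparison. From the other lists, up to 5 genes with adjusted p under 0.05 in a tumor effect were named, as were the 2 panel genes of highest Pearson's r with each endothelial gene. Promoter windows came from RefSeq (GRCm38.p6). Summaries and plots used Python 3.11.15, numpy 2.4.6, pandas 2.3.3 and matplotlib 3.10.9.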

Additional observations from a re-analysis of the deposited data

Results flagged for a closer look

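Each endothelial gene was read in each group of 4 or 5 samples, which gave 110 sets of values. Single samples stood apart from the others in 12 of the 110 sets. Chance gives about 1 in 20 for separate sets, but the genes share the same samples. One deviating sample can thus be flagged for more than 1 gene, so the count cannot be set against chance and is a description. The gap to the nearest sample, relative to the range of the set, exceeded Dixon's 95% critical value in each of the 12. Of these, 7 lay in hypothalamus of tumor-bearing mice, where some samples were flagged for more than 1 gene. Whether sets were flagged more often there than elsewhere was not tested.

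Cldn5 was low at 9.59 in hippocampus of tumor mid-dark mouse 3 (others 10.04 to 10.22) and at 9.01 in hypothalamus of tumor mid-light mouse 13 (others 9.67 to 9.87), and high at 10.27 in brain stem of vehicle mid-dark mouse 4 (others 10.15 to 10.17). Ly6a was low at 7.23 in hippocampus of tumor mid-light mouse 1 (others 7.63 to 7.78) and at 7.37 in hypothalamus of tumor mid-dark mouse 11 (others 7.78 to 7.94). Both lay toward the vehicle values.

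In hypothalamus of tumor mid-dark mice, mouse 23 was high in Esam at 8.69 (others 8.51 to 8.55) and in Myct1 at 6.05 (others 5.41 to 5.5). Mouse 7 of that group was high in Emcn at 7.86 (others 7.7 to 7.74) and low in Tie1 at 6.83 (others 7.07 to 7.16). Tie1 was high at 7.65 in hypothalamus of tumor mid-light mouse 1 (others 7.08 to 7.2) and low at 7.36 in brain stem of vehicle mid-light mouse 22 (others 7.6 to 7.69). Flt1 was low at 8.47 in hypothalamus of vehicle mid-light mouse 6 (others 8.94 to 9.01).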

How the results depend on the processing

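Of 57 results of single endothelial genes followed through the alternatives, 32 were called. Of these 22 were called under every alternative run and 10 were lost under at least 1, and of the other 25, 11 were called under at least 1. No result reversed its direction. The 57 were picked for an adjusted p under 0.05 or an unadjusted p under 0.01 by limma in the main fit. Most alternatives left out 1 mouse of the same data, so a kept direction is no separate support. The Ly6a, Slc2a1 and Emcn tumor differences and the Cldn5 and Icam2 phase differences over regions were called throughout. Without the replicate block, 1 call was lost (Cldn5, hippocampus against hypothalamus, adjusted p = 0.0679), and with mouse as fixed terms 1 was lost (Esam, hippocampus against brain stem, adjusted p = 0.0763).

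The number of endothelial genes called moved by more than 1.5 times as follows, and the cause was not tested. In the fit of 3 regions with the replicate block (mouse), tumor calls were 2 in hippocampus (Slc2a1 added, adjusted p = 0.0359), 1 in hippocampus at mid-dark and 1 in hypothalamus at mid-dark (Ly6a, adjusted p = 0.0105), and phase calls were 2 in hippocampus (Icam2 added, adjusted p = 0.00577) and 1 in hypothalamus (Cldn5, adjusted p = 0.00372). Among genes with a mean of at least 5, calls were 1 in hippocampus at mid-dark and 2 for phase in hypothalamus. With the 260/280 ratio as a covariate, they were 1 in hippocampus at mid-dark, 2 for tumor status in hypothalamus and 0 for mid-dark brain stem, and with only samples at 1.8 or more they were 0 in brain stem in each phase. Scaling to reference genes gave 0 for phase in hippocampus, 0 in brain stem at mid-light, 2 between hippocampus and hypothalamus and 9 between hypothalamus and brain stem. The ordinary test and the fit of only the 2 groups compared gave 0 in brain stem at mid-light.

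Leaving out 1 mouse at a time, tumor calls ranged from 0 to 2 in hypothalamus (0 without vehicle mouse 28 or 30), from 1 to 2 in brain stem, from 3 to 4 over regions, and from 0 to 1 for mid-dark and mid-light hippocampus, mid-dark hypothalamus, mid-light brain stem and for the interaction in hippocampus. Phase calls ranged from 1 to 2 in hippocampus, 0 to 1 in hypothalamus and 2 to 3 over regions. Region calls ranged from 3 to 6 between hippocampus and hypothalamus (3 without vehicle mouse 8), 8 to 9 between hippocampus and brain stem and 5 to 6 between hypothalamus and brain stem. With 3 to 5 samples a group, the smallest tumor or phase difference of an endothelial gene called within 1 region was 0.29 log2 units (Cldn5, phase, hippocampus).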
